A study of Mus musculus with 768 samples.

Results

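The nuclear genes of oxidative phosphorylation were examined in single NK cells from MTAP1A tumors, with and without PD-1. Members were all deposited gene entries whose symbol starts with Nduf, with Sdh followed by a, b, c or d, with Uqcr, with Cox4, Cox5, Cox6, Cox7 or Cox8, or with Atp5, which gave 94 of 24490 entries. By symbol, 45 belonged to complex I, 6 to complex II, 8 to complex III, 18 to complex IV and 17 to complex V. The choice used names only and no measured value. The cells were NK1.1+ CD3- cells, sorted singly into the wells of 2 plates and read with SMART-SEQ2, which covers full-length transcripts and adds no molecular identifiers. The WT plate held cells from C57BL/6 mice and the PD-1-/- plate cells from C57BL/6 mice that carry the PDCD-1(PD-1)-/- deletion, in both cases from the pooled tumors of 3 mice. MTAP1A is a clone of a TAP1-deficient MCA fibrosarcoma, and by the methods the recipients of this tumor were male and of the age range common to the study. Each genotype was thus a single sample. Its effect and that of its plate cannot be told apart, no test between genotypes was possible and no value has a replicate error.

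Oxidative phosphorylation takes place at the inner mitochondrial membrane. Complexes I, III and IV pass electrons from NADH to oxygen and pump protons, complex II feeds in electrons from succinate, and complex V, the ATP synthase, uses the proton gradient to make ATP. Most subunits are encoded in the nucleus and the rest in mitochondrial DNA. Activated NK cells raise both glycolysis and respiration, and lactate dehydrogenase A (Ldha), granzyme B (Gzmb) and interferon gamma (Ifng) are commonly read beside these pathways. Ldha makes lactate from pyruvate, Gzmb encodes a protease of the cytotoxic granules and Ifng the main cytokine of NK cells.

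Values were RPKM, reads scaled for gene length and sequencing depth, as deposited. Wells with 1000 to 3500 genes above 0 were kept, counting genes above 0 in at least 3 wells, which left 726 of 768 wells, 360 of them WT. A gene counted as detected in a cell at an RPKM above 0. Whole reads recovered from the steps of the RPKM values had a median of 319133 per WT cell and 341716 per PD-1-/- cell, and the median number of detected genes was 2264.5 and 2262.5. The NK cell markers Klrb1c, which encodes NK1.1, and Ncr1 were detected in 96.1% and 90.8% of WT cells and in 96.99% and 91.8% of PD-1-/- cells. NK1.1 was also a marker of the sort. Eomes was the least often detected of the 8 genes listed as NK cell markers, at 61.9% for WT against 55.2% for PD-1-/-. The paper describes clusters with little Eomes, among which PD-1-/- cells were over-represented. At least 1 gene of a T cell list of 10 had reads in 22.2% of the WT plate and 26.8% of the PD-1-/- plate, although CD3+ cells were gated out. Pdcd1, of which the PD-1-/- mice lack a part, was detected in 9 WT cells and in 47 PD-1-/- cells. The paper also reports its transcripts in both genotypes, and relates those in PD-1-/- cells to the deletion being partial. With no values by exon Pdcd1 did not check the labels, and WT and PD-1-/- are used here as the labels give them. No entry carried a symbol of the mitochondrial genome, so only the nuclear subunits were read.

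NK cells of both plates transcribed all 5 complexes. Of the 94 members, 53 were detected in at least 50% of the cells, 76 in at least 20% and 10 in under 5%. A WT cell had reads of a median of 49 members, ranging from 9 to 71, and a PD-1-/- cell of a median of 48, ranging from 4 to 74. The members together took a median of 3.03% of the summed RPKM of a WT cell and 2.85% of that of a PD-1-/- cell. Over all cells, complex I held 37.04% of the summed mean level of the members, complex V 25.1%, complex IV 22.4%, complex III 11.05% and complex II 4.45%. These shares follow the number of members as well as their levels. The median of the mean level per member was highest in complex III, at 192.9 RPKM, and in complex V, at 188.1 RPKM, and was 129.2 RPKM in complex IV, 119.2 RPKM in complex I and 108.2 RPKM in complex II. The order depends on rare members, since complex IV includes 7 isoforms of other tissues that were nearly absent: over the members in at least 20% of the cells its median was the highest, at 266.8 RPKM, before complex V with 198.4 RPKM and complex III with 192.9 RPKM.

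**Figure D1:**
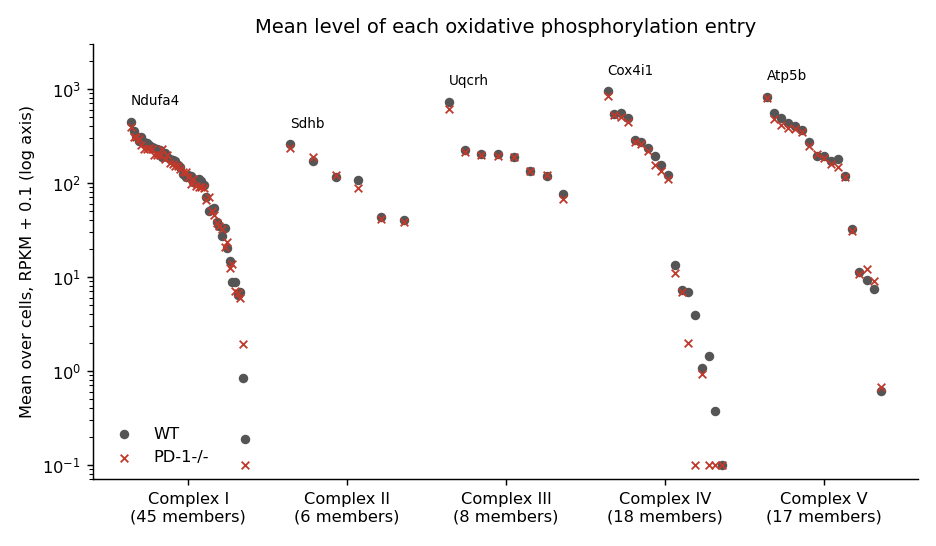
Mean RPKM of each member, plus 0.1, on a log axis, with members ordered within their complex by level. Grey circles are means over WT cells, red crosses means over PD-1-/- cells, and the member with the highest mean is named in each complex. The highest means, of Cox4i1 and Atp5b, lie between 805 and 942 RPKM, and points at 0.1 are members at 0.

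Cytochrome c oxidase, complex IV, held the member with the highest mean level. Cox4i1, a subunit of the enzyme found in most tissues, had reads in 95% of WT cells (92.2 to 97.01, exact binomial 95% interval) and in 93.99% of the PD-1-/- cells (91.04 to 96.2). Its level in single WT cells ran from 0 over a median of 870 to 3646 RPKM, with a mean of 942, and in PD-1-/- cells from 0 over 765 to 3370 RPKM, with a mean of 836. The ranges overlapped almost in full. Cox8a, a small subunit, was detected most widely of all members, with reads in 96.9% of WT (94.6 to 98.5) and 96.4% of PD-1-/- cells (94.003 to 98.1), with medians of 513 and 456 RPKM. Cox6b1, on the intermembrane side of the enzyme, had means of 546 RPKM in WT and 522 RPKM in PD-1-/- cells. At the low end of the complex, among members in at least 20% of the cells, stood Cox5b with 115.4 RPKM over all cells and Cox7c with 12.1 RPKM.

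In complex V, the highest levels belonged to parts of the F1 head and its stalk. Atp5b, the catalytic beta subunit, had a median of 751 RPKM in WT cells, with a maximum of 3283, and 753 RPKM in PD-1-/- cells, with a maximum of 3258. Atp5e and Atp5d, the epsilon and delta subunits of the central stalk, had means of 557 and 489 RPKM in WT cells and of 476 and 409 RPKM in PD-1-/- cells. The lowest members in at least 20% of the cells were Atp5l and Atp5g1, at 10.5 and 10.8 RPKM over all cells. In complex III, Uqcrh, the hinge protein at the docking place of cytochrome c, stood apart. It was detected in 93.3% of WT (90.2 to 95.7) and 91.3% of PD-1-/- cells (87.9 to 93.9), with medians of 606 and 564 RPKM. The next member, Uqcrc1, a core protein of the complex, had a mean of 218.2 RPKM over all cells, and Uqcrq, a small subunit, 201.9 RPKM. The lowest of the 8, Uqcr11 and Uqcrb, both small subunits, had 119.4 and 72.03 RPKM.

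Complex I was led by small accessory subunits. Ndufa4, which the symbol places here but which is now known as a subunit of complex IV, had means of 448 RPKM in WT and 393 RPKM in PD-1-/- cells, and the accessory subunits Ndufa3 and Ndufa2 followed with 332.8 and 311.6 RPKM over all cells. The 7 core subunits of complex I encoded in the nucleus, which carry the flavin and the iron-sulfur clusters, had mean levels of 51.4 to 208.2 RPKM, with a median of 107.7 RPKM, against a median of 188.2 RPKM for the 67 other structural subunits of all complexes. The lowest members in at least 20% of the cells were Ndufb4 at 21.8 RPKM and Ndufab1, the mitochondrial acyl carrier protein, at 6.47 RPKM. In complex II, Sdhb, the iron-sulfur subunit, had 244.9 RPKM over all cells and Sdha, the flavoprotein, 181.4 RPKM. The membrane anchors Sdhd and Sdhc had 118.8 and 97.6 RPKM, and Sdhaf2, which helps to attach the flavin to Sdha, 42.2 RPKM. Assembly factors were low throughout, with a median of 26.9 RPKM over the 9 of them, and 3 of the 9 (Ndufaf3, Ndufaf7 and Sdhaf2) passed the filter used for the genotypes below.

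Subunit isoforms known from heart, muscle, lung or testis were nearly absent. All 7 (Cox4i2, Cox6a2, Cox6b2, Cox7a1, Cox7b2, Cox8b and Cox8c) were detected in under 5% of the cells, with Cox6a2, the heart and muscle partner of Cox6a1, the most frequent at 2.48%. Cox8b was detected in 0 of 360 WT cells, which allows a share of up to 0.833%, and in none of the PD-1-/- cells, up to 0.820%. These limits are the share that 3 cells would make up, and like the intervals they cover counting error only. The upper ends of the exact binomial 95% intervals were 1.02% and 1.003%. Their widely expressed partners Cox6a1 (469 RPKM), Cox7a2 (226.3 RPKM) and Cox7b (142.9 RPKM) were detected in 80.6% to 90.9% of the cells. Ndufa4l2, the hypoxia-induced relative of Ndufa4, was detected in 0.138% of the cells. Cox7a2l, a relative of Cox7a2 that takes part in joining complexes III and IV, was detected in 77.4% of the cells, at a mean of 173.2 RPKM.

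The 3 genes of the c-ring, through which protons turn the ATP synthase, encode the same mature protein but gave very unequal values. Atp5g3 had 261.6 RPKM over all cells, Atp5g1 10.8 RPKM and Atp5g2 0.545 RPKM, with detection in 83.5%, 50.1% and 5.23% of the cells. This order followed how much of each coding sequence is found in no other gene. In GENCODE vM21 transcripts (GRCm38), 100% of the coding bases of Atp5g3 lay in a 50-base stretch that no other gene has, against 29.9% for Atp5g1 and 0% for Atp5g2. Of the 94 members, 7 had under 50% of their coding bases in such stretches: Atp5g2, Atp5l and Sdhaf1 with 0%, Ndufb4 with 24.5%, Cox7c with 25.9%, Atp5g1 with 29.9% and Ndufab1 with 30.98%. The 6 subunits among them had means of 0.545 to 21.8 RPKM, with a median of 10.7 RPKM, while the 50 structural subunits whose coding sequence was wholly unique had 37.8 to 888 RPKM, with a median of 205.1 RPKM, and these ranges did not overlap. Wholly unique here means that every coding base lay in at least 1 such stretch. Genes of this kind can still share other stretches, as Atp5c1 did with 3 pseudogenes. The 18 subunits in between, at 50% to under 100% unique, overlapped both groups. Their means were 1.29 to 469 RPKM, with a median of 158.1 RPKM. Sdhaf1 shared its coding sequence with 1 other gene that is not a pseudogene, and the remaining 6 shared theirs with at least 2 pseudogenes each. These shares cover coding bases only, and over whole transcripts level and uniqueness were less closely tied. Of all 50-base stretches of the transcript, Atp5g1 had 88.4% and Ndufab1 87.7% to itself, despite their low means. Atp5o and Ndufa12 had 49.7% and 46.2%, with means of 188.1 and 68.3 RPKM. Atp5l and Atp5g2 were low by this measure too, at 15.2% and 12.6%.

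Coding sequences, without the stop codon and for Atp5l up to base 300, show the contrast; bases in capitals lie in a 50-base stretch of that gene alone. All are on the minus strand of GRCm38 and written 5′ to 3′. Cox8a (gene at chr19:7215153-7217616) is printed as the wholly unique case, Cox7c (chr13:86044816-86046904) as the mixed one, in which 49 bases are unique, and Atp5l (chr9:44912557-44920742), subunit g of the ATP synthase, as the case in which no base is, since 14 other genes, 12 of them pseudogenes, share it.
Cox8a: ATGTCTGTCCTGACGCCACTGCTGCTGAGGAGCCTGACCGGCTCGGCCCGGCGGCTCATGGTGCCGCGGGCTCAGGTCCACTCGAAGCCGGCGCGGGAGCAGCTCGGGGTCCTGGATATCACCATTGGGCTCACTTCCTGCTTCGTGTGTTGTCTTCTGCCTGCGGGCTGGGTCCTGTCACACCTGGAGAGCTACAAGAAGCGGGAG
Cox7c: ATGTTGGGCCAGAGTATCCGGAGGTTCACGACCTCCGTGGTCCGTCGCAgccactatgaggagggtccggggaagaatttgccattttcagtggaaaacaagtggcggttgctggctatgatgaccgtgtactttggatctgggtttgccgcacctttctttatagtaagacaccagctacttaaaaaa
Atp5l: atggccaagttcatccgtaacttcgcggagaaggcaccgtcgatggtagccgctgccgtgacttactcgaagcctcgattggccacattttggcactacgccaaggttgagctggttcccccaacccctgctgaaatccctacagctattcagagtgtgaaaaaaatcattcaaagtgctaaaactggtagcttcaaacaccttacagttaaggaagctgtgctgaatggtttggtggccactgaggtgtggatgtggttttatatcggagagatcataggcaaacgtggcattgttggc

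In Cox7c and Atp5l a low level stood beside detection in more than 50% of the cells. Of the other members under 50% unique, Atp5g1 was detected in 50.1% and Ndufb4 in 47.4% of all cells, but Ndufab1 in 23.4%, Sdhaf1 in 14.6% and Atp5g2 in 5.23%. Cox7c was detected in 56.1% of WT cells (50.8 to 61.3), at a median of 6.33 RPKM and a maximum of 178.5, and Atp5l in 55.6% (50.3 to 60.8), at a median of 5.45 RPKM and a maximum of 222.4. In PD-1-/- cells the shares were 53.6% and 51.4% and the medians 5.56 and 4.26 RPKM. Of the wholly unique subunits with a like share of cells, Uqcrc1 was detected in 58.1% at a mean of 218.2 RPKM and Ndufa11 in 57.3% at 37.8 RPKM, the lowest mean of the wholly unique subunits. Ndufs5, a subunit with 63.5% unique coding bases, was low in both respects, with reads in 0.826% of the cells and a mean of 1.29 RPKM (chosen after its values were seen). Outside the members, cytochrome c (Cycs), with 4.76% unique coding bases, had 1.57 RPKM in WT and 0.599 RPKM in PD-1-/- cells and was also seldom detected, in 14.2% and 12.02% of them. Of the glycolysis genes, Pgk1 (7.43%), Gapdh (10.2%) and Pgam1 (12.5%) had 11.03, 38.4 and 3.21 RPKM in WT cells, with Gapdh detected in 92.8% of them. How reads that match several places were counted is not stated, so the levels of these members are uncertain, and the part of shared sequence in them was not tested.

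**Figure D2:**
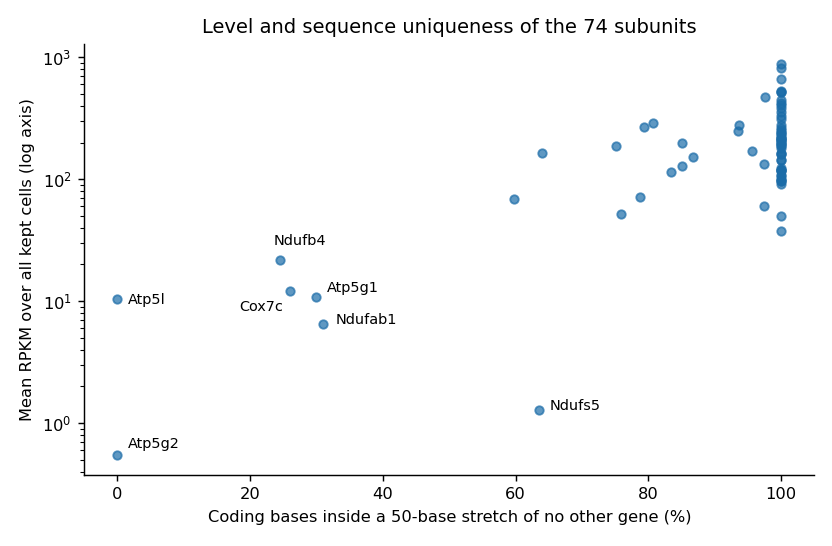
Mean RPKM over all kept cells on a log axis against the percent of coding bases that lie in a 50-base stretch of no other gene, for the 74 structural subunits of the widely expressed kind. The 6 subunits under 50% lie at or below 21.8 RPKM, and the subunits at 100% at or above 37.8 RPKM. The 18 subunits in between run from 1.29 to 469 RPKM and overlap both.

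The windows around the start sites, 250 bases before to 50 after, were read for 78 members in the RefSeq table of GRCm38.p6. The letters GCGCA and GCGC with any base between them, a form of the site of NRF1, a regulator of respiratory genes, were found on either strand in 18 members, 23.1% of them, against 4.78% of 27025 promoters. CCGGAAG, a form of the ETS site that GABP binds, was also found in 18, 23.1% against 9.12%, and AAGATGGCG, a form of the YY1 site, in 7, 8.97% against 1.49%. Any of the 3 was found in 38 members, 48.7% against 14.04% of all promoters. The letters TATAAA of the TATA box were found in 7, 8.97% against 14.2%. The median mean level was 121.4 RPKM for the 38 members with any of the 3 motifs and 147.6 RPKM for the 40 without. The 27025 promoters are those of all genes and were not matched to the members in level or base content. Letters are a description and show no binding.

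Shown are the 120 bases before the start sites of members named above, each on the minus strand and written 5′ to 3′, with motif letters in capitals: Sdha (chr13:74350241-74350360), which holds NRF1 letters repeatedly, Cox6a1 (chr5:115348959-115349078), which holds both NRF1 and ETS letters, and Uqcrh (chr4:116075071-116075190), the leading member of complex III, with ETS letters alone.
Sdha: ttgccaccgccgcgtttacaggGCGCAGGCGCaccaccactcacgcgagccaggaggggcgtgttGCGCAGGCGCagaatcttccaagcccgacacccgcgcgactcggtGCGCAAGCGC
Cox6a1: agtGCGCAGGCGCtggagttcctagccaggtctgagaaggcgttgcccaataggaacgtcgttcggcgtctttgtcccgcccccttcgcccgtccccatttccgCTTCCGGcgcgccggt
Uqcrh: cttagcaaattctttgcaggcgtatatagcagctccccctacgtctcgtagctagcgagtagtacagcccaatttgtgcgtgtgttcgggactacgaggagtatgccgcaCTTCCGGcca

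Between the genotypes, most members had a slightly lower mean on the PD-1-/- plate. Log2 ratios are of the mean RPKM plus 1 over all kept cells, PD-1-/- over WT, and 76 members passed the filter, a mean of 10 RPKM or more together with detection in 20% of the cells or more, on either plate. Of these, 61 were below 0, 80.3%, where 51.1% of the 3993 entries that passed were below 0. The median log2 ratio was -0.10 over the members and -0.01 over all these entries. Members are among the higher entries, and of the 994 entries that reached 100 RPKM on either plate 59.3% were below 0, against 81.97% of the 61 members at that level, with medians of -0.05 and -0.12. The plates were also read by upper rows, A to H, and lower rows, I to P. The median of the members was -0.13 in the upper and -0.06 in the lower rows, and 43 of 76 members were below 0 in both, 56.6%, against 28.3% of all entries. The 18 members that did not pass, mostly assembly factors and tissue isoforms, had means too low or too few cells to be read this way.

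**Figure D3:**
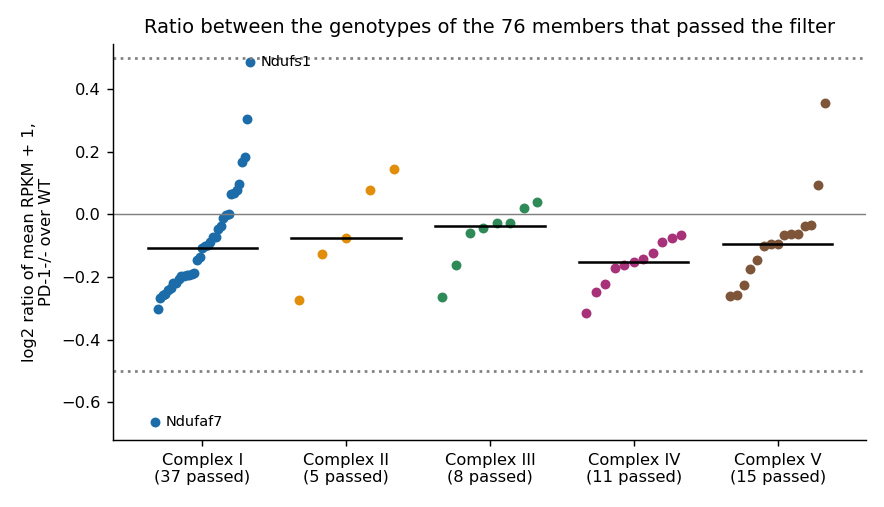
Log2 ratio of mean RPKM plus 1, PD-1-/- over WT, for each of the 76 members that passed the filter, by complex. Black lines are medians, and dotted lines mark the size of 0.5 by which a member was called. All 11 points of complex IV lie below 0, and Ndufaf7 alone lies beyond a dotted line.

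A member was called at a log2 ratio of at least 0.5 in size. None was higher on the PD-1-/- plate by this rule, where 3.23% of all entries were, and 1 was lower, Ndufaf7, where 3.16% of all entries were. Ndufaf7, a methyltransferase that acts on a core subunit during assembly of complex I, was detected in 77 WT cells, 21.4% (17.3 to 25.99), and 49 PD-1-/- cells, 13.4% (10.1 to 17.3). Its median was 0 on both plates, its maximum 564 and 525 RPKM and its mean 33.3 and 20.7 RPKM, a log2 ratio of -0.66, with -0.70 in the upper rows and -0.63 in the lower. It barely passed the filter, on the WT plate alone, and with each cell scaled to a total of 10000 its ratio was -0.22, short of a call. The member nearest to a call in the other direction, chosen after its values were seen, was Ndufs1, the large iron-sulfur core subunit of complex I, at 0.49. Reads of it were found in 21.4% of WT cells against 30.3% of PD-1-/- cells, and the upper rows gave 0.72 and the lower rows 0.25. The paper lists Ndufs1 among the genes it reports as significantly upregulated in PD-1-/- NK cells, by a comparison of all cells of each genotype. Ndufa10, the only member within 20 Mb of Pdcd1 on chromosome 1, at 1.56 Mb, had means of 186.9 RPKM in WT and 195.4 RPKM in PD-1-/- cells, a log2 ratio of 0.06.

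Of complex IV, all 11 members that passed were below 0, with a median of -0.15 and a range of -0.31, for Cox7a2l, to -0.07, for Cox6b1. In both blocks of rows 8 of them were below 0. The other 3 were above 0 in the lower rows, Cox5a at 0.18, Cox7c at 0.09 and Cox6c at 0.04, and the median was -0.23 in the upper rows and -0.10 in the lower. Among the leading members the log2 ratio was -0.17 for Cox4i1 and -0.14 for Cox8a, and both lay between -0.13 and -0.20 in each block of rows. In complex V, 13 of 15 were below 0, with -0.26 for Atp5d, -0.23 for Atp5e and -0.03 for Atp5b. Of the members of complex V above 0, Atp5l, one of the uncertain genes, had 0.35, with -0.33 in the upper rows and 0.93 in the lower. In complex III, 6 of 8 were below 0, of which Uqcrh was lowest at -0.26. Complex I had 28 of 37 below 0, with -0.19 for Ndufa4. In complex II the split was 3 of 5, with -0.27 for Sdhc and 0.15 for Sdha.

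The score of a cell, the mean over members of the natural log of RPKM plus 1, showed the same small difference in front of a wide spread among cells. Over all members it ran from 0.658 over a median of 2.78 to 4.22 in WT cells and from 0.271 over 2.70 to 4.24 in PD-1-/- cells. The means were 2.77 and 2.67, a difference of -0.0997, while the standard deviation among cells was 0.571 and 0.613. Taken between plate rows, in 8 pairs of neighboring rows at the same place on both plates, the difference ran from -0.345 to 0.0488 and was below 0 in 6. It was -0.145 for complex IV, where all 8 pairs were below 0, -0.106 for complex V, -0.103 for complex I, -0.0330 for complex III and -0.00639 for complex II. The spread of the 8 differences (SD) was 0.0929 for complex IV and 0.124 over all members, so that the difference exceeded the spread between rows for complex IV and not for all members together. Rows are places on 1 plate and not replicates of a genotype, and this SD is not the error of a mean difference. In cells with a read of Cd3d, Cd3e or Cd3g the mean score was 2.77 in WT and 2.69 in PD-1-/- cells, against 2.77 and 2.66 in the cells without.

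**Figure D4:**
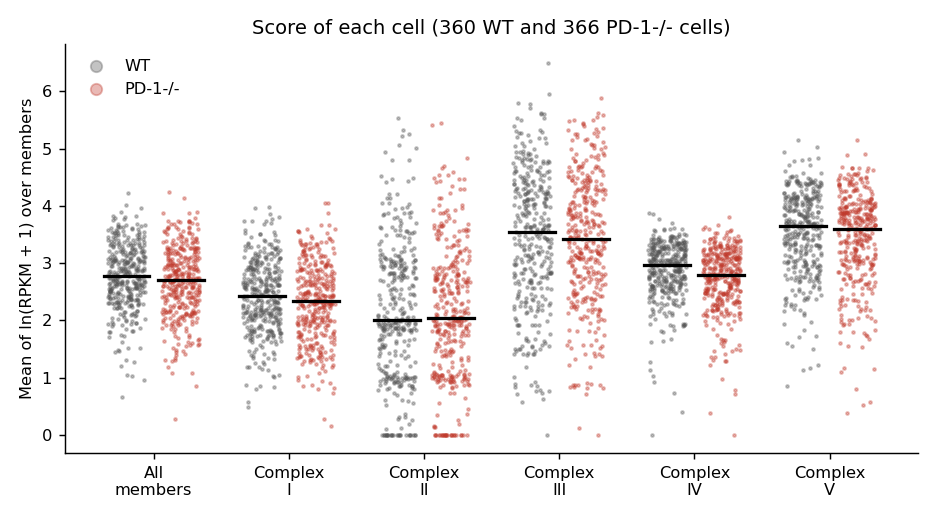
Score of each kept cell, the mean of ln(RPKM + 1) over all members or over those of a complex, with WT cells in grey and PD-1-/- cells in red. Black lines are medians, 2.78 and 2.70 over all members, and the clouds of the genotypes overlap over nearly their whole range.

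Cells with a high score were above all cells with many detected genes. The Spearman rho of the score with the number of detected genes was 0.790 across the 360 WT cells and 0.846 across the PD-1-/- cells. All correlations here are across cells of 1 pool that share a library preparation and differ in depth, and are descriptions. The scores of the complexes were positively correlated, with rho up to 0.594 in WT and 0.668 in PD-1-/- cells, both between complexes I and V. Complex II was least tied to the others, with 0.248 to 0.367. Its score averages 6 members, against 45 for complex I. The rho of the score with detected genes was 0.366 for complex II and 0.728 for complex I in WT cells. In PD-1-/- cells it was 0.480 and 0.803. The part of these differences in the order of the complexes was not tested. Given the number of detected genes, the partial rho between complexes was at most 0.358, between IV and V in WT cells. Single members were related only weakly: over the 1378 pairs of the 53 members detected in at least 50% of the cells, the median rho was 0.0565 in WT and 0.0626 in PD-1-/- cells, against 0.0262 and 0.0252 over all pairs of the 1037 entries detected as widely. With the score of the other members, and ordered by the lower rho of the genotypes, Cox7b (0.317 in WT and 0.286 in PD-1-/- cells) and Atp5b (0.334 and 0.281) came first.

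Before detected genes were taken into account, Ldha was among the entries most closely related to the score. Reads of it were found in 83.9% of WT cells and 86.1% of PD-1-/- cells, with medians of 405 and 432 RPKM, and its rho with the score was 0.437 and 0.407. By the lower of these values it stood at place 9 of the 984 entries outside the members. Cells with Ldha had a mean score of 2.86 in WT and 2.75 in PD-1-/- cells, against 2.30 and 2.17 in cells without it, but they also had more detected genes, with a median of 2319 and 2360 against 1760.5 and 1772. Given the number of detected genes, the partial rho was 0.150 and 0.102, and more than 100 other entries stood before Ldha. Of the complexes, I had the highest rho with Ldha (0.419 and 0.377) and II the lowest (0.124 and 0.228), before detected genes were taken into account. Among the 53 single members, 1, Atp5g1, had a rho of at least 0.2 with Ldha in both genotypes, 1.89%, where 1.64% of the 1036 entries other than Ldha did. A partial rho of at least 0.1 in both was also found for 1, Atp5b, where 1.16% of the entries reached it.

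The rho of Gzmb and Ifng with the score was low. Gzmb had reads in 81.9% of WT cells and 86.6% of PD-1-/- cells, and its rho with the score was 0.130 and 0.0436, place 690 of 984. Given the number of detected genes it was 0.0950 and 0.160, near the 0.150 and 0.102 of Ldha, and by the lower value more than 100 other entries stood before Gzmb as well. No member had a rho of at least 0.2 with Gzmb in both genotypes, where 0.869% of the entries did, and 3 (Atp5b, Atp5d and Uqcrb) had a partial rho of at least 0.1, 5.66%, where 5.31% of the entries did. Ifng, with reads in 25.8% of WT cells and 31.1% of PD-1-/- cells, had a rho with the score of -0.0417 and -0.0147. The mean score was 2.75 in WT cells with Ifng and 2.78 in those without, and 2.71 and 2.65 in PD-1-/- cells. No member passed either limit with Ifng, where 0% of 1037 entries had a rho of at least 0.2 and 0.0964% a partial rho of at least 0.1.

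**Figure D5:**
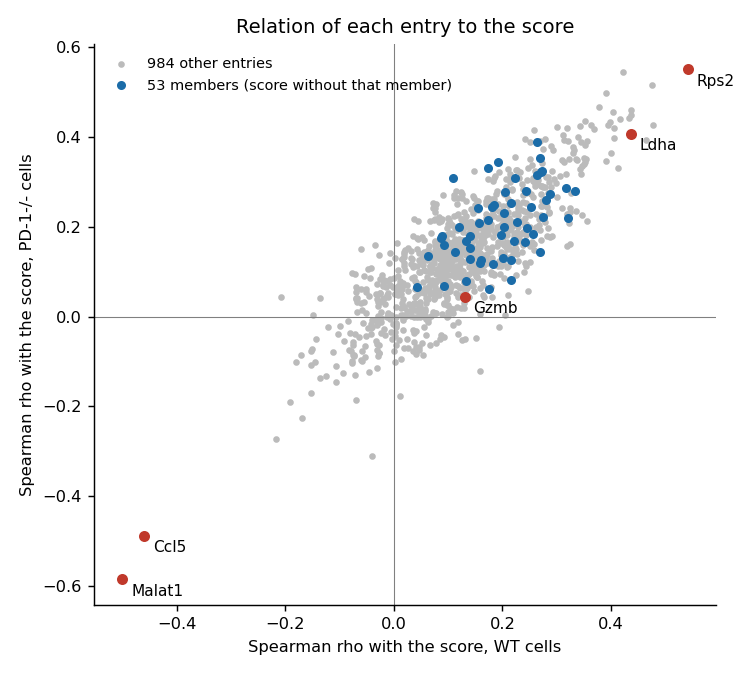
Spearman rho of each entry detected in at least 50% of the cells with the score over all members, across WT cells on the x axis and PD-1-/- cells on the y axis. Grey points are 984 other entries and blue points the 53 members, each against the score of the other members; Ldha lies near the upper end (0.437 and 0.407) and Gzmb near 0.

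Outside the members, the entries most like the score before detected genes were taken into account were those of the translation machinery. By the lower rho of the genotypes, the leading entries were the ribosomal proteins Rps2 (0.541 in WT and 0.550 in PD-1-/- cells), Rplp0 (0.476 and 0.515) and Rps19 (0.438 and 0.461), the elongation factor Eef1a1 (0.436 and 0.450) and Rps20 (0.433 and 0.442). Over 59 Rpl and Rps entries the median rho was 0.313 in WT and 0.3504 in PD-1-/- cells, above that of all 984 entries, 0.120 and 0.137. At the other end, picked after their values were seen, were the nuclear RNA Malat1 (-0.50 and -0.58) and the chemokine Ccl5 (-0.46 and -0.49). Both also had a negative rho with the number of detected genes, which in PD-1-/- cells was -0.63 and -0.48. Given that number, the partial rho with the score shrank to -0.08 in WT and -0.12 in PD-1-/- cells for Malat1 and to -0.15 and -0.17 for Ccl5. It was 0.276 and 0.3601 for Rps2 and 0.176 and 0.3103 for Rplp0. By the lower partial rho of the genotypes, Rps2 stood at place 2 of the 984. Rps20, Rps19, Eef1a1 and Rplp0 stood at places 9, 19, 39 and 42. Place 1 was held by Actb, picked after its values were seen, with 0.338 in WT and 0.292 in PD-1-/- cells. The median partial rho was 0.186 and 0.2096 over the 59 Rpl and Rps entries, and 0.0337 and 0.0324 over all 984.

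Genes of neighboring pathways were spread more evenly around 0. Of 13 TCA cycle enzymes, which supply NADH and succinate, all passed the filter, 8 were below 0 and none was called, with a median log2 ratio of -0.01. Of 21 glycolysis genes found, 13 passed, 7 were below 0 and 1 was called, the glucose transporter Slc2a3, with 30.6 RPKM in WT and 52.8 RPKM in PD-1-/- cells, a log2 ratio of 0.77, with 1.23 in the upper rows and 0.28 in the lower. The paper also lists Slc2a3 as significantly upregulated in PD-1-/- NK cells. Ldha itself was at -0.01. Of 28 further assembly factors outside the member rule, 9 passed, 4 were below 0 and none was called, with a median of 0.05. Of 14 regulators of mitochondrial genes only Myc passed, at 0.11, and Nrf1 and Gabpa, the factors of the promoter letters above, were detected in 17.2% and 18.6% of WT cells and 17.8% and 18.6% of PD-1-/- cells. Cycs and Cyct did not pass.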

How the data were processed

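The authors deposited RPKM per gene entry and well for both plates, 24490 entries and 768 wells. Per the labels, the submitters' processing notes name TopHat, Cufflinks, mm9 and mm10, without role or version, and the handling of reads that match several places is not given in the sources used here. Values were used as deposited.

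Members, gene lists and limits were chosen with earlier results of these data known. For the main settings, called members and their share were read beside all entries under the same rule. Named members are the 3 highest and 2 lowest of each complex among those in at least 20% of cells, called members, paralogue groups, the member near Pdcd1, the 5 outside entries closest to the score and Ldha, Gzmb and Ifng. Others are named as chosen after their values were seen, and members named as examples of shared sequence or of the extremes of a complex were chosen in that way too. The limit of 50% on unique coding bases was set after seeing levels. Whole reads were recovered from the steps of RPKM in 86 members, 80 of which had a single step. Over all 9645 entries with a single step, 99.0% of 682660 values below 60 reads were whole within 0.0003. Steps and depths were chosen to make values whole, so this share is no independent check. On the WT plate 26 kept cells and on the PD-1-/- plate 14 fell short of 100000 reads, with a lowest of 1280 and 1380. The log2 ratio, the filter, the Spearman rho and the recovery of reads were tested on simulated data. The sequence searches, partial correlations, row differences and thinning were not. Well labels paired no cells. The lists outside the text had a read, on the WT and the PD-1-/- plate, in 13.1% and 7.10% of cells for myeloid, 1.94% and 1.37% for neutrophil, 1.39% and 1.64% for B cell, 5.83% and 3.01% for fibrosarcoma and 19.2% and 26.0% for cycling markers, and their part in the results was not tested. Computation used Python 3.11.15, numpy 2.4.6, pandas 2.3.3, scipy 1.17.1 and matplotlib 3.10.9. The alternatives changed the wells, rows, depth, scaling, pseudocount, filter, call size, members and form of the score or correlation.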

Additional observations from a re-analysis of the deposited data

Results flagged for a closer look

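Wells outside the limits on detected genes were not used above, but carried transcripts of the members. In the 8 WT wells with fewer than 1000 genes, which each had at least 1 member, the median score over all members was 0.254. Of the 4 PD-1-/- wells with fewer than 1000 genes, 3 had a member, and the median score was 0.269. In the 16 WT and 14 PD-1-/- wells with more than 3500 genes, the median score was 3.68 and 3.83, above the medians of the kept cells. These wells, apart from the 4, were flagged because they gave signal above the limit that a count of 0 allows, and whether they hold 1 cell was not tested.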

How the results depend on the processing

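Of the alternative values of the main results, 23 moved away from the reported value. The difference in score kept its sign for complexes I, IV and V and over all members under every alternative run, while that of complex II reached 0.0604 without cells with a CD3 read and that of complex III 0.0424 in the lower rows, I to P. The count of called members was unstable. The share of all entries past the fold was not computed for these alternatives, so the counts stand without a background. Members higher on the PD-1-/- plate numbered 1 with all wells, in rows A to H, without rows A and B and without cells with a CD3 read, and 2 in rows I to P and with no filter on low values. Members lower on it numbered 0 after thinning to 100000 reads, after scaling each cell to a total of 10000, with subunits only, with a pseudocount of 10 RPKM and with a limit of 1 on the log2 ratio, 3 in rows I to P, and 4 in rows A to H and with no filter. Ndufaf7, the member called lower, had a log2 ratio of -0.22 after scaling, where the pseudocount of 1 weighs more, and -0.50 with the pseudocount of 10; after thinning it had -0.58 but missed the filter, and it is no subunit. The partial rho of the score with Ldha was 0.150 in WT and 0.102 in PD-1-/- cells, and with thinning, added after seeing the data, 0.184 and 0.0814; with Gzmb it was 0.160 in PD-1-/- cells. With Ifng, the rho in the upper and the lower rows was 0.0756 and -0.18 on the WT plate and -0.14 and 0.129 on the PD-1-/- plate. The cause was not tested. Leaving out the members under 50% unique, also added later, moved none of these values. Thinning left out 27 WT and 14 PD-1-/- cells. No paired analysis was possible because well numbers only name cells. With 1 pool per genotype, no setting gives a replicate error, and a member seen in few cells has a mean that rests on them.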
